A study of Mus musculus with 8 samples.

Results

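The Schlafen genes encode a family of vertebrate proteins that were first described in mouse lymphocytes as restraints on cell growth. The members were taken by symbol: 7 genes (Slfn1, Slfn2, Slfn3, Slfn4, Slfn5, Slfn8 and Slfn9) of the 55385 in the count table, 5 of which had enough counts to be tested. In primary cultured mouse microglia, 2 members held most of the counts of the family, without allowance for gene length. Slfn2 and Slfn5 were each present at 238 ± 44.6 and 236 ± 68.2 CPM (counts relative to the scaled library total; mean ± SD, n = 4) in control cultures. After IgG they stood at 306 ± 32.6 and 339 ± 144 CPM. Per kilobase of exon, the control means were 143 CPM for Slfn2 and 37.3 CPM for Slfn5. All 5 tested members had higher means with IgG, beside 50.7% of all genes, by log2 fold changes of 0.36 (Slfn2) to 0.79 (Slfn9). When the groups were compared as wholes, 0 of the 5 passed adjustment over all genes, as did 0% of the 17537 genes tested. The size of the change differed between the 4 pairs of cultures.

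Microglia, the resident macrophages of the brain, were wild-type mouse cells from newborn neocortex and hippocampus. Cells of several brains were pooled, grown in flasks and collected by shaking, so that other glia can remain among them. Treatment was at DIV15 (days in vitro), with 4 untreated control cultures and 4 cultures given 10 µg/ml IgG for 24 h. The labels call the controls untreated, whereas the methods name PBS. Each replicate number marks 1 control and 1 IgG library of the same label date, called a pair. The question was how IgG alters the microglial transcriptome, and here how it bears on the Schlafen genes. The sources used here do not say whether the 4 dates stand for separate litters, so the p-values measure only the spread between these libraries.

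Library totals ran from 21287816 to 23703216 counts, so that 3 counts, up to which a count of 0 leaves a gene open, equal 0.127 to 0.141 CPM. The labelled cell type was checked against its markers. All 10 microglial genes were tested, and they summed to 7863 to 8626 CPM in control and 8468 to 9447 CPM in IgG libraries. Of these, 8 had higher means with IgG, with a median log2 fold change of 0.21. Of the T and NK cell genes, Cd3e, Cd3d, Cd8a, Ncr1 and Nkg7 had 0 counts in all libraries, as did S100a9, Ly6g, Mpo, Elane and Retnlg of the neutrophil list and Plac8 and Chil3 of the monocyte list. The 8 T and NK cell markers summed to 2.41 to 2.75 CPM in control and 2.43 to 3.05 CPM in IgG libraries. The neutrophil markers summed to 0.580 to 1.63 and 1.03 to 2.18 CPM, and the monocyte markers to 0.731 to 1.51 and 0.478 to 0.834 CPM. These blood cells also express Schlafen genes. The oligodendrocyte markers summed to 1244 to 1904 CPM in control and 1076 to 1806 CPM in IgG libraries, and 7 of 8 had lower means with IgG. The astrocyte markers summed to 128 to 142 CPM in control and 116 to 137 CPM in IgG libraries, with 6 of 7 lower (median log2 fold change -0.13). Of 6 tested neuron markers 5 had lower means (sums of 37.9 to 63.5 and 34.0 to 50.6 CPM), and the 3 tested endothelial markers had higher means (median 0.96, sums of 6.54 to 10.9 and 5.55 to 14.3 CPM). Markers of border-associated macrophages, which line the brain's surfaces and vessels, summed to 57.4 to 82.4 CPM in control and 52.2 to 108 CPM in IgG libraries, and 3 of 4 tested had higher means with IgG (median log2 fold change 0.21). Fibroblast markers summed to 3.51 to 7.001 and 4.85 to 6.42 CPM. The part of these cells in the Schlafen values was not tested. In bulk RNA, a change in the number of cells of a type and a change in RNA per cell cannot be told apart. The mitochondrial share of the counts was 4.85% in IgG 1, 5.59% in IgG 3 and 1.97% to 2.41% in the other 6 libraries.

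Schlafen proteins share a core with a divergent ATPase-like domain, and several act on transfer RNA. They come in short forms (Slfn1 and Slfn2), intermediate forms (Slfn3 and Slfn4) and long forms with a helicase-like region (Slfn5, Slfn8 and Slfn9). Many are induced by type I interferon, which signals through its receptor and the kinases Jak1 and Tyk2 to the transcription factor complex ISGF3, of which Stat2 and Irf9 are subunits. This complex binds the interferon-stimulated response element in target promoters.

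The genes lie side by side on chromosome 11. In GRCm38 (mm10) with the GENCODE M21 annotation, Slfn5 (ENSMUSG00000054404) spans 82951349 to 82964840, Slfn9 (ENSMUSG00000069793) 82978390 to 82991830 and Slfn8 (ENSMUSG00000035208) 83002158 to 83020810. They are followed by Slfn2 (ENSMUSG00000072620) at 83065112 to 83070678 and Slfn1 (ENSMUSG00000078763) at 83116849 to 83122670. Slfn4 (ENSMUSG00000000204) at 83175186 to 83190216 and Slfn3 (ENSMUSG00000018986) at 83191330 to 83215154 close the row. All 7 are annotated as protein coding.

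The promoters of the 4 best-counted members are shown because 3 of them hold letters of the interferon-stimulated response element and 1 does not. The 250 bases before each RefSeq start (GRCm38.p6) were searched on both strands for GAAANNGAA, a stretch of that element. These letters occur in 7.13% of 32851 promoter windows of that length. They were found in the windows of Slfn5 (2 matches), Slfn8 (1) and Slfn9 (1), and not in those of Slfn1, Slfn2, Slfn3 or Slfn4. The gamma-activated letters TTCNNNGAA, present in 7.02% of all windows, were in none of the 7. Capitals mark the matches, and each sequence reads 5′ to 3′ on the strand of its gene. Slfn5 covers chr11:82951852-82951984 (plus strand), Slfn8 chr11:83020811-83020930 (minus strand), Slfn9 chr11:82991831-82991950 (minus strand) and Slfn2 chr11:83064862-83065111 (plus strand). The Slfn5 stretch lies before the RefSeq start but inside the gene span of GENCODE, which starts further upstream at 82951349.
Slfn5: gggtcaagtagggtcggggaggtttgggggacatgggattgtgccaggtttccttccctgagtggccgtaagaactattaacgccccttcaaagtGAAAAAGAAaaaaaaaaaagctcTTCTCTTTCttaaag
Slfn8: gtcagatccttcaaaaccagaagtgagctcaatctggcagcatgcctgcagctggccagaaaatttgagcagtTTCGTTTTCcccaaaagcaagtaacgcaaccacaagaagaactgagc
Slfn9: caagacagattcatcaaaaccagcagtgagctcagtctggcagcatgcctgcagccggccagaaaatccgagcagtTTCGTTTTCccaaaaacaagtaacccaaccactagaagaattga
Slfn2: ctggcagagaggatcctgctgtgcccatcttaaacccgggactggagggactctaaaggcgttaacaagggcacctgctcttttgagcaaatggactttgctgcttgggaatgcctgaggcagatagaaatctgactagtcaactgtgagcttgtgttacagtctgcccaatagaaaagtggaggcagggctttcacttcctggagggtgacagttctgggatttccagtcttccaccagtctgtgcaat
The matches lay at -155 to -147 and -132 to -124 from the start in Slfn5, at -47 to -39 in Slfn8 and at -44 to -36 in Slfn9. RefSeq gives 2 starts for Slfn8, and from the other the same match lies at -135 to -127. Slfn8 and Slfn9 carried the same 9 letters, TTCGTTTTC. A match is a description of these letters and not a site of binding.

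Slfn2 restrains the growth of T cells and monocytes and protects transfer RNA from cleavage. Its level in control 1 to 4 was 287, 221, 258 and 185 CPM, and in IgG 1 to 4 it was 345, 291, 318 and 270.0 CPM. Every IgG library was above its own control, yet the groups overlapped, since IgG 4 was below control 1. The log2 fold change was 0.36 (SE 0.14, unadjusted p = 0.0278, adjusted p = 0.692 by the quasi-likelihood test of edgeR, Benjamini-Hochberg over all genes). Within pairs 1 to 4 the change was 0.26, 0.39, 0.30 and 0.55. Of the 5 tested members, Slfn2 alone had its largest within-pair change in pair 4. Without control 4 its log2 fold change was 0.24.

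Slfn5, a long nuclear member known in human cells as a co-repressor of interferon-induced transcription, had 311, 236, 251 and 146 CPM in control 1 to 4. With IgG it had 481, 306, 417 and 153 CPM. The libraries of replicate 1 were the highest of their groups and those of replicate 4 the lowest, so that IgG 4 lay below 3 of the 4 controls. The log2 fold change was 0.52 (SE 0.33, adjusted p = 0.709 in edgeR), and the changes within pairs 1 to 4 were 0.63, 0.37, 0.73 and 0.07. The fold change ranged from 0.31 without IgG 1 to 0.77 without IgG 4.

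Slfn8 had 69.9, 49.8, 56.6 and 35.9 CPM in control 1 to 4 and 117, 71.8, 102 and 40.2 CPM in IgG 1 to 4. Within each group the order of the libraries was that of Slfn5, with IgG 4 again among the controls. Slfn8 had a log2 fold change of 0.64 (SE 0.30, adjusted p = 0.692 in edgeR), with 0.74, 0.53, 0.85 and 0.16 in pairs 1 to 4. Slfn9, its neighbour and closest relative, had 36.1, 27.1, 29.0 and 19.0 CPM in control and 72.1, 33.3, 69.0 and 18.6 CPM in IgG libraries. In IgG 1 and IgG 3 Slfn9 stood well above every control, while IgG 2 lay within the control range and IgG 4 just under the lowest control. Its log2 fold change of 0.79 (SE 0.38, adjusted p = 0.692 in edgeR) came from pairs at 1.00, 0.30, 1.25 and -0.04. Without IgG 1 the fold change of Slfn9 was 0.53, and without IgG 4 it was 1.06.

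Slfn3, an intermediate form studied in the differentiation of gut epithelium, was low. It had 3.98, 1.94, 2.22 and 1.29 CPM in control 1 to 4 and 5.45, 2.258, 4.46 and 1.41 CPM in IgG 1 to 4. The groups overlapped over most of their range. The log2 fold change was 0.52 (SE 0.45, adjusted p = 0.755 in edgeR), with 0.45, 0.21, 0.98 and 0.12 in pairs 1 to 4. It fell to 0.19 when IgG 1 was left out and was 0.90 without control 1.

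Slfn1 and Slfn4 were removed by the filter on low counts. Slfn1, which like Slfn2 restrains T cell growth, had 13, 3, 9 and 4 counts in control 1 to 4 and 30, 4, 22 and 9 counts in IgG 1 to 4. Each IgG library held more counts than its own control, and the groups overlapped. When all genes with at least 1 count were tested, the log2 fold change was 1.27 (SE 0.59, adjusted p = 0.705 in edgeR). Slfn4, a member studied in macrophages and in myeloid cells of the stomach, had 9, 2, 12 and 2 counts in control and 4, 20, 6 and 6 counts in IgG libraries. It was lower with IgG in pairs 1 and 3 and higher in pairs 2 and 4. At these counts no difference was detectable for Slfn4 (log2 fold change 0.60, SE 0.64, adjusted p = 0.743 in edgeR).

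**Figure D1:**
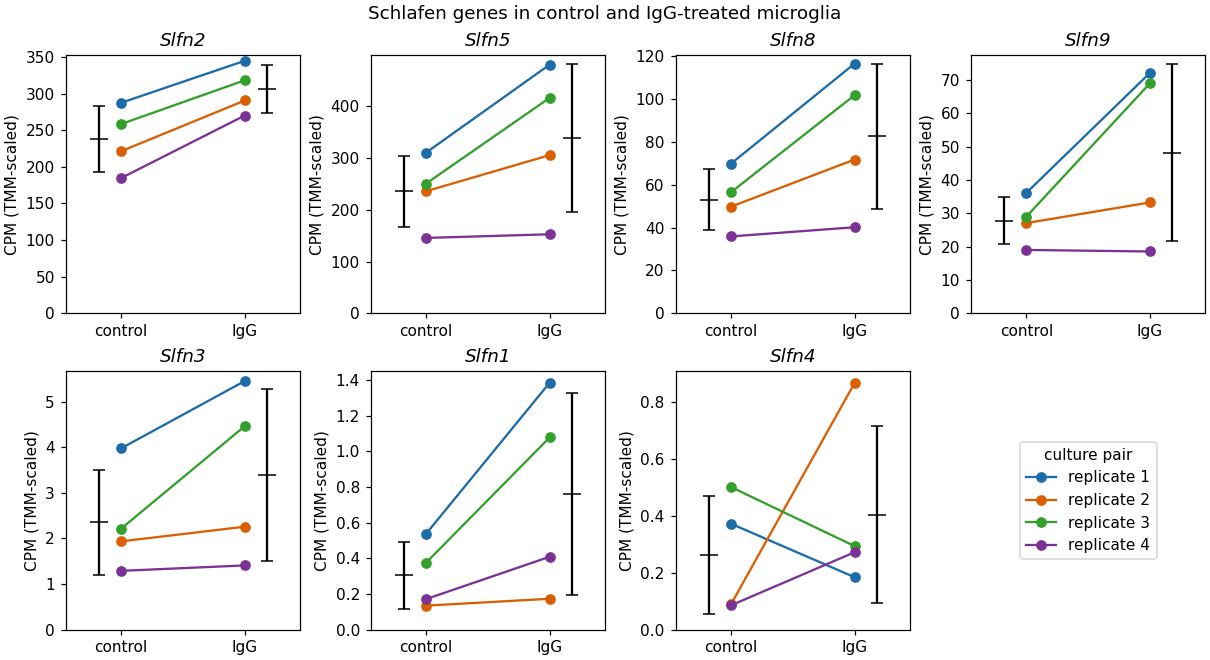
CPM (TMM-scaled, vertical axis from 0) of each Schlafen gene in control and IgG libraries, with lines joining the 2 libraries of a pair and black bars giving mean ± SD (n = 4). In the 5 tested genes replicate 1 is the highest and replicate 4 the lowest of each group, and the lines of replicate 4 are nearly flat except in Slfn2.

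Among libraries of 1 group, the members spread unequally. Slfn2 differed by 1.56-fold between the highest and the lowest control and by 1.28-fold among IgG libraries. Slfn5 differed by 2.13-fold and 3.15-fold, Slfn8 by 1.95-fold and 2.90-fold, and Slfn9 by 1.90-fold and 3.89-fold. Slfn3, at low counts, differed by 3.08-fold and 3.87-fold. The long members and Slfn3 therefore varied more among IgG than among control libraries, whereas Slfn2 varied less. The ratio of Slfn9 to Slfn8 counts was 0.51 to 0.54 in the 4 controls, and it was 0.62, 0.46, 0.68 and 0.46 in IgG 1 to 4. The ratio of Slfn5 to Slfn2 counts was 1.08, 1.07, 0.97 and 0.79 in control 1 to 4 and 1.39, 1.05, 1.31 and 0.57 in IgG 1 to 4. Both ratios were highest in IgG 1 and IgG 3 and lowest in IgG 4.

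Levels of different genes were compared per kilobase of exon. In controls, Slfn2 had 143 ± 26.8 CPM per kilobase (SD, n = 4), followed by Slfn5 with 37.3 ± 10.8, Slfn8 with 12.97 ± 3.46 and Slfn9 with 4.66 ± 1.18. The control ranges of these neighbours in the order did not overlap. Slfn3 followed with 0.690 ± 0.337, Slfn1 with 0.164 ± 0.101 and Slfn4 with 0.0663 ± 0.0526 CPM per kilobase, and the ranges of Slfn1 and Slfn4 overlapped. In IgG libraries the order of the means was the same, from 184 ± 19.6 for Slfn2 to 0.102 ± 0.0789 for Slfn4. The range of Slfn8 (9.82 to 28.5) then overlapped with those of Slfn5 (24.2 to 76.0) and Slfn9 (3.11 to 12.1). That of Slfn3 (0.413 to 1.60) overlapped with that of Slfn1 (0.0932 to 0.743), which it did not in controls. The CPM of all 7 members summed to 387 to 709 in control and 484 to 1021 in IgG libraries, and Slfn2 and Slfn5 together made up most of each sum.

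**Figure D2:**
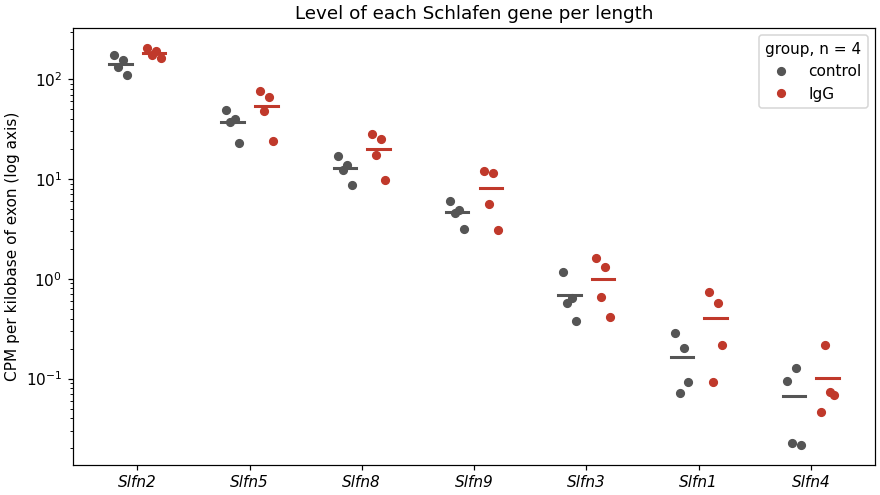
CPM per kilobase of exon on a log axis for each Schlafen gene, as 4 control (grey) and 4 IgG (red) libraries, with horizontal bars at the group means. The means fall from Slfn2 (143 in control) to Slfn4 (0.0663 in control), and among the tested members the spread is wider with IgG except in Slfn2.

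Across all genes, the comparison of the 2 groups as wholes called little. By edgeR's test of the groups alone, 0 of the 5 tested members had an adjusted p under 0.05, as did 0% of the 17537 genes tested, and limma-voom without the block also called 0 of the 5 and 0% of all genes. Without the block, DESeq2 and edgeR's likelihood ratio test called 0 of the 5 as well, beside 0.302% and 0.245% of all genes. At an unadjusted p under 0.05, 1 of the 5 (Slfn2) was higher, beside 7.01% of all genes in either direction. By the study's criterion (unadjusted p under 0.01 and absolute log2 fold change above 0.5) 0 of the 5 were called, beside 0.844% of all genes. In none of the 5 was every IgG library above every control library, a pattern seen in 2.6% of all genes.

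The pairing changed this picture in part. Of the 5 tested members, 4 (all but Slfn9) were higher with IgG in all 4 pairs, as were 10.5% of all genes. When each pair was given a term of its own in the edgeR test (the block), the log2 fold changes were 0.38 (SE 0.09) for Slfn2, 0.45 (SE 0.12) for Slfn5, 0.57 (SE 0.12) for Slfn8, 0.64 (SE 0.20) for Slfn9 and 0.48 (SE 0.21) for Slfn3. All 5 had an unadjusted p under 0.05 in this fit, beside 10.2% of all genes. By the study's criterion 1 member, Slfn8, was called with the block, beside 1.82% of all genes. After adjustment 0 of the 5 were under 0.05, beside 0.393% of all genes. The adjusted p-values in edgeR with the block were 0.148 for Slfn8, 0.214 for Slfn2, 0.289 for Slfn5, 0.368 for Slfn9 and 0.487 for Slfn3.

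Calls with the block turned on the tool and the filter. DESeq2 with the block called 1 member, Slfn8 (adjusted p = 0.00957), beside 1.32% of all genes. In a setting added after seeing the data, edgeR with the block on all genes with at least 1 count called 3 of the 7 members, beside 1.2% of those genes. These were Slfn5, Slfn8 and Slfn9, with adjusted p-values of 0.0327, 0.00509 and 0.0120 in edgeR, while Slfn2 had 0.0910. Without replicate 4, the block fit with the usual filter called 2 of 6 members tested, beside 1.04% of all genes. These were Slfn5 and Slfn8, with log2 fold changes of 0.56 and 0.69.

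The members differ in length and GC content, on which counts can depend from library to library. Slfn2 had the shortest exons of the tested members (1664 bases, 49.5% GC), while Slfn5 has 6326 bases at 44.4% GC, Slfn9 5965 bases at 43.2% GC, Slfn8 4091 bases at 44.0% GC and Slfn3 3411 bases at 44.5% GC. When the trends of each library on these features were removed, the within-pair changes drew closer together. Those of Slfn5 were then 0.45, 0.38, 0.55 and 0.25 in pairs 1 to 4, those of Slfn2 0.33, 0.38, 0.39 and 0.45, and those of Slfn8 0.58, 0.53, 0.68 and 0.26. Those of Slfn3 were 0.32, 0.22, 0.87 and 0.19. Slfn9 remained widest, with 0.79, 0.30, 1.04 and 0.16, and all 5 tested members were then above 0 in all 4 pairs. The share of all genes above 0 in all 4 pairs was 10.5% without this correction and was not counted with it. With this correction and the replicate block, 3 of the 5 members were called in edgeR, beside 1.11% of all genes. They were Slfn8 (log2 fold change 0.52, SE 0.08, adjusted p = 0.0229), Slfn2 (0.39, SE 0.07, adjusted p = 0.0352) and Slfn5 (0.41, SE 0.08, adjusted p = 0.0474). Slfn9 had an adjusted p of 0.113 and Slfn3 of 0.365 in the same edgeR fit. The larger changes of the long members and of Slfn3 fell in pairs 1 and 3, whose IgG libraries had the raised mitochondrial shares. With pairs 2 and 4 alone and the block, a setting added after seeing the data, the log2 fold changes were 0.47 for Slfn2, 0.35 for Slfn8, 0.22 for Slfn5, 0.18 for Slfn3 and 0.14 for Slfn9. The part of these libraries' RNA quality in the result was not tested.

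**Figure D3:**
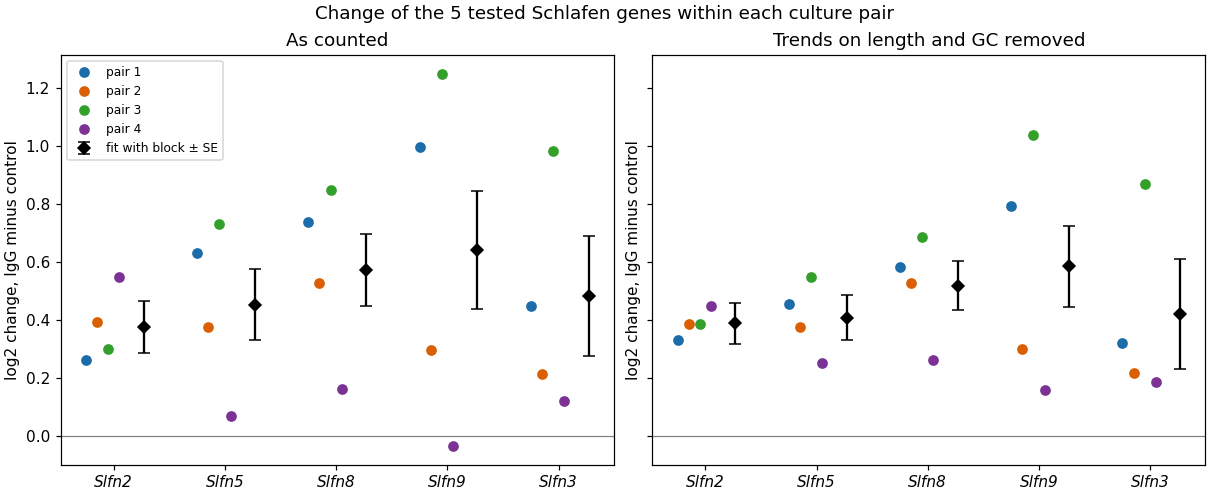
Log2 change (IgG minus control) of the 5 tested Schlafen genes in each pair, as counted (left) and after trends on gene length and GC content were removed (right), with black diamonds for the edgeR fit with the replicate block ± SE. Slfn2 lies between 0.26 and 0.55 on the left, Slfn9 between -0.04 and 1.25, and on the right every point is above 0.

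Members of the cluster are copies of one another, which bears on counts of single genes. Over their aligned coding sequences, Slfn8 and Slfn9 were identical at 92.7% of bases, as were Slfn3 and Slfn4, while all other pairs had 63.2% to 77.0%. Of the 50-base stretches in the transcripts of Slfn8, 14.6% also occur in another Schlafen gene, and of those in Slfn9 11.2%, most often in the pseudogene Slfn10-ps. The share was 7.38% in Slfn5, wholly with the antisense gene Slfn5os, and it was 8.15% in Slfn4, 7.39% in Slfn3, 4.27% in Slfn2 and 0.606% in Slfn1. With genes outside the family included, Slfn3 had the highest share of the 7, 16.0%. For 100-base stretches the share within the family was 6.16% in Slfn5, 3.71% in Slfn9, 3.38% in Slfn8 and at most 0.128% in the other members. When near-identical copies were summed before testing, Slfn8 with Slfn9 had a log2 fold change of 0.69 (SE 0.33, edgeR adjusted p = 0.692, or 0.227 with the block), and Slfn3 with Slfn4 had 0.53 (SE 0.41, edgeR adjusted p = 0.739, or 0.395 with the block). The sources used here do not give how reads with several alignments were counted or whether strand was used.

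**Figure D4:**
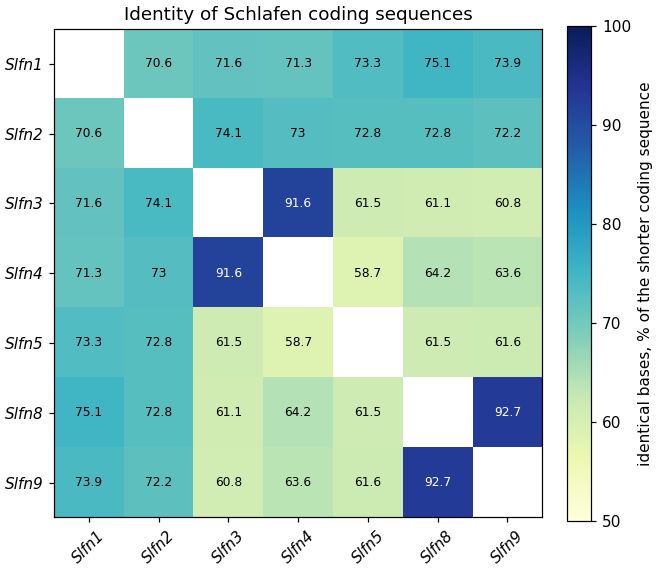
Identical bases as a percentage of the shorter coding sequence for each pair of Schlafen genes, from global alignments of GENCODE M21 transcripts. Slfn8 with Slfn9 (92.7%) and Slfn3 with Slfn4 (91.6%) stand apart from all other pairs (58.7% to 75.1%).

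Other genes named for the family were followed too. Slfn5os (ENSMUSG00000086327, chromosome 11, 82942341 to 82960681), an antisense gene, shares 559 exon bases with Slfn5, which are 50.7% of its exons. It had 44.99, 37.0, 37.6 and 23.4 CPM in control 1 to 4 and 85.4, 44.0, 70.8 and 18.6 CPM in IgG 1 to 4, and reads of the shared stretch cannot be told apart from those of Slfn5 without strand. Its changes in pairs 1 to 4 were 0.92, 0.25, 0.91 and -0.33. The pseudogene Slfn10-ps (ENSMUSG00000072621, chromosome 11, 83028130 to 83040042) had 19.3, 14.3, 15.4 and 13.5 CPM in control and 34.6, 15.9, 26.9 and 6.68 CPM in IgG libraries, with changes of 0.83, 0.15, 0.80 and -1.01. In pair 4 both were thus lower with IgG, where Slfn5 and Slfn8 were at 0.07 and 0.16. Neither passed adjustment with or without the block. Slfn14, which acts in platelets and red cell precursors, had 1 count in control 4 and 1 in IgG 4, and Slfnl1 had 0 to 2 counts per library.

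Interferon-stimulated genes outside the family were set beside the members. Of a list of 30 such genes, all 30 had higher means with IgG, beside 50.7% of all genes, and each in all 4 pairs, beside 10.5%. The list was chosen with earlier results of these data known, so these counts are a description and not a test. Its median log2 fold change was 0.67, against 0.00 over all genes tested and 0.52 over the 5 tested members. Without IgG 1 the median of the 30 genes was 0.50. The 5 members then ran from 0.19 (Slfn3) to 0.53 (Slfn9), with the middle value at 0.31 (Slfn5). Without the block 14 of the 30 had an unadjusted p under 0.05 in edgeR, beside 7.01% of all genes, and 0 an adjusted p under 0.05. With the block 12 of them passed adjustment in edgeR, beside 0.393% of all genes. The medians of the 30 genes in pairs 1 to 4 were 0.72, 0.61, 0.83 and 0.69, and those of the 5 Schlafen genes were 0.63, 0.37, 0.85 and 0.12. The Schlafen median was thus within 0.1 of the other in pairs 1 and 3 and lay below it in pairs 2 and 4, a difference that was not tested. In pair 4 the 30 genes themselves ran from 0.07 (Eif2ak2) to 1.30 (Irf7). With the length and GC correction, pair 4 gave 0.45 for Slfn2, 0.25 for Slfn5, 0.26 for Slfn8, 0.16 for Slfn9 and 0.19 for Slfn3. Irf7, a transcription factor of the interferon response, changed by 1.06, 1.05, 1.11 and 1.30 in pairs 1 to 4. Ifit1, which binds foreign RNA, changed by 1.25, 0.71, 1.49 and 0.75, and Isg15, a ubiquitin-like modifier, by 0.15, 0.92, 0.18 and 1.14. Isg15 thus changed most in the pairs in which Slfn9 changed least.

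**Figure D5:**
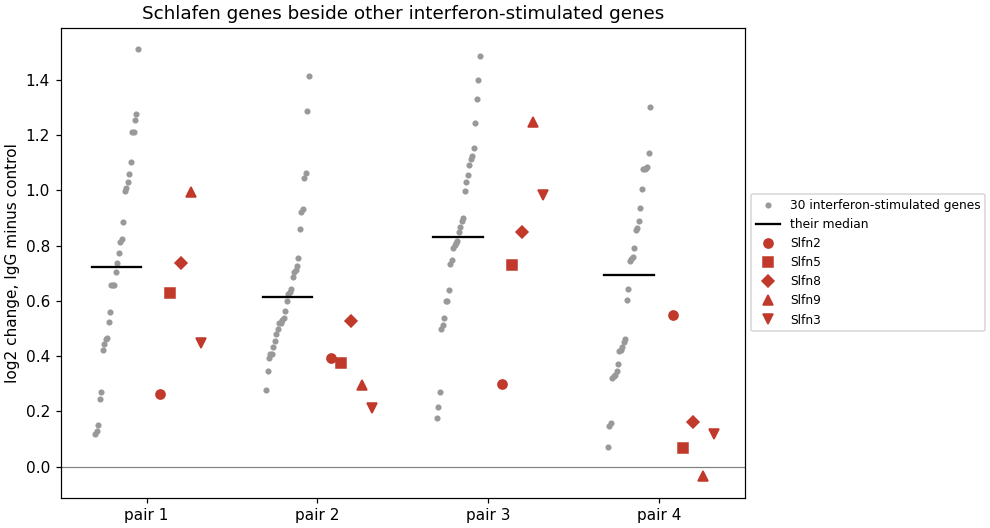
Log2 change (IgG minus control) within each pair for 30 interferon-stimulated genes (grey points, sorted, with a bar at their median) and the 5 tested Schlafen genes (red symbols). The grey medians lie between 0.61 and 0.83 in every pair, while in pair 4 the red symbols other than Slfn2 (0.55) lie between -0.04 and 0.16. The grey points of pair 4 run from 0.07 to 1.30. All changes are shown without the length and GC correction.

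The receptor and signalling genes were measured in the same fit. The receptor subunits Ifnar1 and Ifnar2 had log2 fold changes of 0.09 (SE 0.10) and 0.16 (SE 0.08), and the kinases Jak1 and Tyk2 0.18 (SE 0.13) and -0.04 (SE 0.08). The values of Ifnar1, Jak1 and Tyk2 changed sign under other settings. The ISGF3 subunits Stat2 and Irf9 had 0.46 (SE 0.26) and 0.24 (SE 0.13), and each was higher in all 4 pairs. Without control 4 these values were 0.29 and 0.12, and that of Ifnar2 was 0.10, while Stat2 was at 0.30 without IgG 1. The adjusted p of Stat2 in edgeR was 0.697, or 0.110 with the block. With the block it was 0.0238 after the length and GC correction, 0.0175 by DESeq2, 0.0244 in edgeR on genes of at least 1 count and 0.0498 in edgeR without replicate 4. Since Slfn1 and Slfn2 are known for restraint of growth, 15 genes of the cell cycle were counted as well. Of these, 8 had higher and 7 lower means with IgG, the median log2 fold change was 0.00, and 0 had an unadjusted p under 0.05 without or with the block, beside 7.01% and 10.2% of all genes.

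The genes whose log2 CPM followed that of Slfn5, the member with the highest mean CPM over all 8 libraries (in controls alone the mean of Slfn2 was higher, 238 against 236 CPM), most closely over the 8 libraries were Gbp9 (Pearson's r = 0.996), Gbp10 (0.996), Samhd1 (0.994), Herc6 (0.994) and Gbp7 (0.992). They were the first 5 of 17530 genes compared. The 8 libraries share 4 dates and 2 groups, and the values are a description. Gbp9, Gbp10 and Gbp7 encode guanylate-binding proteins, which are themselves similar copies, and Samhd1 encodes an enzyme that breaks down deoxynucleotides.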

How the data were processed

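The authors enriched mRNA on oligo(dT) beads, removed ribosomal RNA, made libraries with a NEBNext Ultra kit, discarded reads of low quality or with adapter or undetermined bases, and aligned the rest to mm10 with HISAT2. The submitters' processing notes list HISAT2 2.2.1, SAMtools 1.12, Picard 2.26.3, featureCounts, R 4.1.2 and edgeR 3.36.0 without their roles. The annotation used for counting, the treatment of reads with several alignments and the use of strand are not given in the sources used here. The authors deposited whole-number counts per Ensembl gene, with no normalization, in 1 table of 8 libraries.

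Groups and replicate numbers came from the labels. Gene symbols, positions, exon lengths and GC content are those of GENCODE M21, in which 55144 of the 55385 identifiers were found, and promoters from RefSeq (GRCm38.p6). The counts were scaled with TMM, filtered with filterByExpr and tested with edgeR 4.0.16's quasi-likelihood test in R 4.3.3 (group only, two-sided), with Benjamini-Hochberg adjustment over the 17537 genes tested. CPM used TMM-scaled library sizes, and log2 CPM a prior count of 2. The alternatives were a replicate block, alone or with lowess offsets (span 0.3) for length and GC content, DESeq2 1.42.0, the likelihood ratio test, limma 3.58.1 (voom), other scalings and filters, and the omission of libraries or pairs. Added after the data were seen were pairs 2 and 4 alone, the correction without the block, and the block on genes of at least 1 count. The statistics were tested on simulated data. The members and gene lists were chosen with earlier results of these data known, and the promoter motifs and genes named followed rules: the 7 members, other genes of that name, 3 flanking genes on each side, 6 interferon-stimulated genes, the receptor and ISGF3 genes and the 5 genes most correlated with the member of highest mean CPM. Some genes of these rules and of the marker lists are not reported here.

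The replicate numbers pair the libraries, since the labels give both libraries of a number the same date. Across 15668 genes, deviations from the group means correlated at 0.256 to 0.408 for the same number and at -0.342 to 0.198 for different numbers. No 2 libraries of a group agreed within sampling noise (chi-square per degree of freedom at least 5.00). Protein identities were planned; coding sequences of the GENCODE transcripts, aligned with Biopython 1.88, were used instead. Floors cover counting error only.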

Additional observations from a re-analysis of the deposited data

How the results depend on the processing

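Over 30 alternatives, the 5 tested Schlafen genes kept a log2 fold change above 0 in all 150 results, and 9 of the 150 had an adjusted p under 0.05, all with the replicate block. The alternatives reuse the same 8 libraries or parts of them, so the 150 results are not independent. The count of members called (0) was 3 with the block and the length and GC correction (beside 1.11% of all genes), 1 by DESeq2 with the block (1.32%) and 3 with the block on all genes of at least 1 count (1.2%), and 0 to 2 when libraries or pairs were left out. By the study's criterion the count (0) was 1 with the block (beside 1.82% of all genes), 2 with the block and the correction (1.87%), 2 by DESeq2 with the block (2%) and 2 with the block on genes of at least 1 count (2.07%). When libraries or pairs were left out it was 0 to 3, with 3 without IgG 4 (beside 3.43% of all genes), without replicate 4 (1.89%) and without replicate 4 in the block fit (4.34%). Of the receptor and ISGF3 genes, 0 were called, but 2 were with the block and the correction, by DESeq2 with the block and with the block on genes of at least 1 count (beside the same 1.11%, 1.32% and 1.2%), and 0 to 2 when libraries or pairs were left out.

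The median of the 30 interferon-stimulated genes (0.67) was 0.55 with total counts alone and ran from 0.48 without control 4 to 0.92 without IgG 4. Total counts alone moved the median of all genes to -0.09. Ifnar1 turned to -0.013 with total counts alone, and Tyk2 to 0.032 with the length and GC correction, with and without the block. With 1 library or 1 pair left out, Rffl ran from -0.12 to 0.015, Rad51d from -0.12 to 0.014, Rasl10b from -0.72 to 0.020 and Tyk2 from -0.093 to 0.0064. In the block fit, Rffl turned to 0.012 and Tyk2 to 0.0067 without replicate 3, and Rad51d to 0.011 without replicate 2. With pairs 2 and 4 alone, without and with the block, values turned to -0.30 and -0.40 for Slfn10-ps, 0.050 and 0.048 for Nle1, -0.0065 and -0.0064 for Ap2b1, -0.044 and -0.045 for Ifnar1, -0.038 and -0.041 for Jak1 and 0.071 and 0.070 for Tyk2, and with the block to -0.027 for Slfn5os. There Rad51d was at -0.18 in both fits. The causes were not tested. Slfn1 and Slfn4 had 2 to 30 counts per library and were removed by the usual filter when all libraries were used.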

Other observations

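Genes next to the Schlafen cluster on chromosome 11 did not share a direction. On the side of Slfn5, Rffl, Rad51d and Nle1 had log2 fold changes of -0.03 (SE 0.10), -0.05 (SE 0.11) and -0.20 (SE 0.20). On the other side Rasl10b had -0.20 (SE 0.42). Ap2b1, which encodes a subunit of the adaptor complex of clathrin-coated vesicles, had 0.41 (SE 0.18, edgeR adjusted p = 0.692, or 0.484 with the block). Its changes in pairs 1 to 4 were 0.75, 0.01, 0.71 and -0.02, so that the higher values stood in the pairs in which Slfn9 changed most, and without IgG 1 its log2 fold change was 0.27. The values of Rffl, Rad51d, Nle1, Rasl10b and Ap2b1 changed sign when libraries or pairs were left out. None of these genes passed adjustment with or without the block.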
